A study of Mus musculus with 8 samples.

Results

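The genes described here are 10 genes of the hypothalamus and thalamus, brain regions that lie next to the striatum. They are Hcrt, Avp, Oxt, Pmch, Pomc, Trh, Gal, Prkcd, Tcf7l2 and Rora. They were taken by name from the array's own probe annotation, leaving out control spots, which gave 15 probes of 39429 and 10 genes of 30397. The genes were chosen by their levels in the same 8 samples, as markers of the dissection, so those levels are given sample by sample as a description and without a test of the pattern.

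Striatal RNA was taken from mice of the C57Bl/6j strain, all of them adult females. There were 4 wildtype samples and 4 samples heterozygous for Brd2, a gene for a BET bromodomain protein that binds acetylated histones. The heterozygous mice (Brd2+/-) carried a gene-trap insertion in 1 Brd2 copy. Both genotypes came from crosses between heterozygous parents of the 7th backcross generation. Most labels call the dissected region striatum, and the tissue field adds prefrontal cortex. The labels leave unsaid how many animals went into a sample, so the spread between samples may be partly technical and p-values measure only that spread. Each of 4 arrays carried 2 samples of one genotype, with replicates 1 and 3 in the dye Cy3 and replicates 2 and 4 in Cy5.

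Levels are log2 values of normalized spot intensity, so a difference of 1 is a 2-fold difference. The scanner software called 37.7% to 47.6% of spots well above background in the Cy3 samples and 65.9% to 75.5% in the Cy5 samples, and heterozygous replicate 3 had the lowest share. Samples were therefore compared within a dye. A sample was said to stand above the others where its probe was well above background and its level was at least 1 above the highest of the other 3 samples of its dye. For a gene with several probes, the brightest was used unless another is named. Brd2 itself measured 13.08, 12.96, 12.62 and 12.68 in wildtype replicates 1 to 4 and 11.94, 11.85, 12.56 and 11.69 in heterozygous replicates 1 to 4. On this gene alone, the label of heterozygous replicate 3 is in doubt, and a wrong label was not tested. The library lay next to the lowest wildtype sample. It is called heterozygous replicate 3 below only because that is its label, and the genotype differences of the 9 genes in the fit are given with and without it.

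The hypothalamus lies below and behind the striatum and holds small groups of neurons that make peptide hormones and transmitters. Orexin and melanin-concentrating hormone neurons sit in its lateral part and govern wakefulness and feeding. Vasopressin and oxytocin are made by large neurosecretory cells, and proopiomelanocortin by cells of the arcuate nucleus that restrain feeding. The thalamus, behind and medial to the striatum, relays sensory and motor signals to the cortex, and its excitatory neurons share a set of transcription factors and signalling genes. Adult striatum consists mainly of inhibitory projection neurons, which express the dopamine receptors Drd1 and Drd2.

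The probes of 3 genes are shown because each read open in all 3 forward frames and was highest in heterozygous replicate 3. They are the vasopressin probe, the second probe of Prkcd and the second probe of Tcf7l2, written 5′ to 3′ in the sense of the transcript, as the array files give them.
Avp A_51_P136508: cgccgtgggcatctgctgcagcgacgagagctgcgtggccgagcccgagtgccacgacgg
Prkcd A_55_P2008071: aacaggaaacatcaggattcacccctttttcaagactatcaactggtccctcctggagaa
Tcf7l2 A_55_P2030160: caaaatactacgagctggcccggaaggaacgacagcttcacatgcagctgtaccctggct
In the mm9 coordinates of the array files, the Avp probe matches chr2:130406552-130406817 on the minus strand. Its 60 bases span 266 bases of the genome, so it crosses a splice junction. The Prkcd probe lies at chr14:31411938-31411997 on the minus strand, and the Tcf7l2 probe at chr19:55994029-55994088 on the plus strand.

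Of the 10 genes, 6 stood above the other Cy3 samples in heterozygous replicate 3. These were the hypothalamic peptide genes Hcrt, Avp, Oxt, Pmch and Pomc and the thalamic kinase gene Prkcd. Across all 30397 genes, 1.17% stood out in that sample, and 2.5% in any sample. Elsewhere, Hcrt stood out in heterozygous replicate 4, where 0.079% of all genes did, and Pomc stood out in wildtype replicate 2, where 0.0855% did. In the other 5 samples none of the 10 genes did. The corresponding shares of all genes were 0.342% in wildtype replicate 1, 0.322% in wildtype replicate 3, 0.168% in wildtype replicate 4, 0.421% in heterozygous replicate 1 and 0.174% in heterozygous replicate 2. The 4 genes without a sample standing out were Trh, Gal, Tcf7l2 and Rora. Counted without a limit on the gap, heterozygous replicate 3 had the highest level of the 4 Cy3 samples for 7 of the 10 genes, against 29.1% of all genes. In bulk RNA, more cells of a type and more RNA per cell cannot be told apart.

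**Figure D1:**
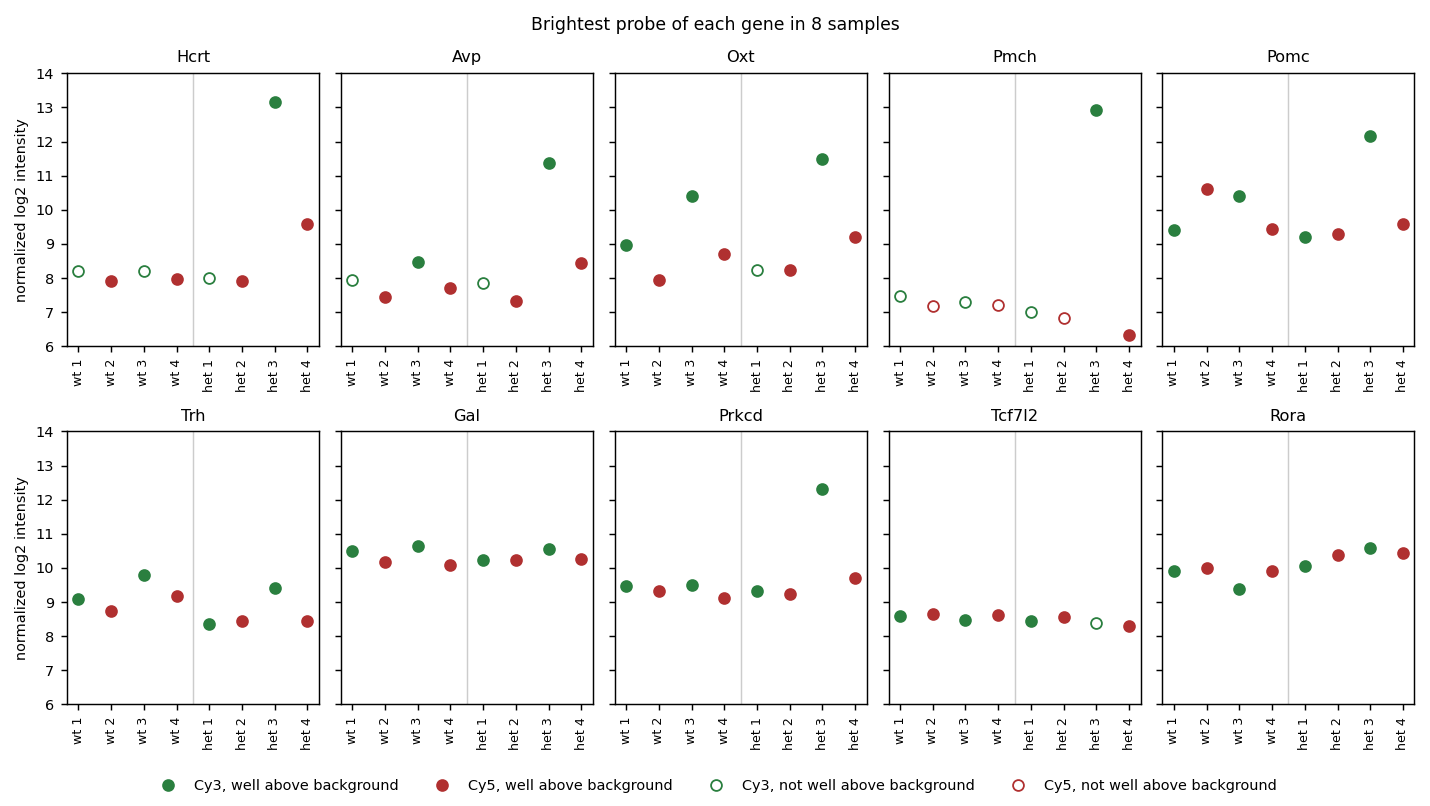
Normalized log2 intensity (vertical axis) of the brightest probe of each of the 10 genes in each of the 8 samples (horizontal axis, wt for wildtype and het for heterozygous). Green points are Cy3 samples, red points Cy5 samples, and open points were not well above background. Heterozygous replicate 3 is the highest point for 7 of the genes, by a gap of 4.95 for Hcrt and 5.43 for Pmch over the other Cy3 samples.

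Hcrt encodes prepro-orexin, the precursor of both orexin peptides. Its brighter probe (A_55_P2142341, chr11:100623007-100623066, minus strand, mm9) measured 8.21, 7.92, 8.21 and 7.96 in wildtype replicates 1 to 4 and 7.999, 7.90, 13.16 and 9.59 in heterozygous replicates 1 to 4. Heterozygous replicate 3 was the highest and heterozygous replicate 4, its partner on the same array, the second highest, while the other 6 samples lay within 7.90 to 8.21. The other 3 Cy3 samples were not well above background, so heterozygous replicate 3 was at least 30.9-fold above them, a gap of 4.95 on the log2 scale. Heterozygous replicate 4 was 3.099-fold above the highest of the other Cy5 samples, a gap of 1.63, and all 4 Cy5 samples were well above background. In the scanner's processed intensities, on a linear scale, the same probe read 6510 in heterozygous replicate 3, 444.7 in heterozygous replicate 4, and 65.19 to 87.46 in the other 6 samples.

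A second Hcrt probe (A_55_P2110316, chr11:100622484-100622543, minus strand), annotated to another transcript of the gene, did not show this. It measured 7.53, 7.35, 7.25 and 6.98 in wildtype replicates 1 to 4 and 7.46, 7.03, 7.52 and 6.99 in heterozygous replicates 1 to 4. It was well above background in 3 samples, all labelled with Cy5, and in heterozygous replicate 3 it was not. The pattern of Hcrt therefore rests on 1 of its 2 probes.

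Pmch encodes the precursor of melanin-concentrating hormone. Its probe (A_52_P418814, chr10:87555031-87555090, plus strand) measured 7.48, 7.17, 7.29 and 7.22 in wildtype replicates 1 to 4 and 7.01, 6.84, 12.91 and 6.34 in heterozygous replicates 1 to 4. Heterozygous replicate 3 lay far above the rest, and the only other sample well above background was heterozygous replicate 4, at a level no higher than the 6 dim samples. Set against the lowest signal well above background in the other Cy3 samples, heterozygous replicate 3 was at least 27.4-fold higher. The processed intensity was 6371 in that sample and 5.126 to 32.53 in the other 7. Hcrt and Pmch thus shared the highest sample. In heterozygous replicate 4, second highest for Hcrt, the processed intensity of Pmch was 20.17, within the range of the other samples.

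Avp encodes vasopressin with its carrier protein neurophysin. The probe printed above measured 7.95, 7.44, 8.48 and 7.70 in wildtype replicates 1 to 4 and 7.85, 7.32, 11.36 and 8.45 in heterozygous replicates 1 to 4. The level in heterozygous replicate 3 was 7.39-fold above that in wildtype replicate 3, the next Cy3 sample, a gap of 2.89. Among the Cy5 samples heterozygous replicate 4 was the highest, with a gap of 0.75, or 1.69-fold, which was under the 2-fold limit.

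Oxt encodes oxytocin and its neurophysin, and lies beside Avp in the opposite orientation. The probe of Oxt (A_55_P2161903, chr2:130402665-130402724, plus strand) is separated from that of Avp by 3827 bases. It measured 8.98, 7.93, 10.40 and 8.69 in wildtype replicates 1 to 4 and 8.23, 8.23, 11.50 and 9.19 in heterozygous replicates 1 to 4. The highest sample was again heterozygous replicate 3, but by 2.14-fold only, a gap of 1.10 just inside the limit. Wildtype replicate 3 was second, and without it the gap was 2.52. The genotypes overlapped among the other samples. With the deposited value table in place of the normalized values the gap of Oxt was 0.26, so Oxt no longer stood out.

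Pomc encodes proopiomelanocortin, the precursor of melanocyte-stimulating hormone, corticotropin and beta-endorphin. Its probe (A_52_P671543, chr12:3960413-3960472, plus strand) was well above background in all 8 samples. It measured 9.41, 10.62, 10.39 and 9.44 in wildtype replicates 1 to 4 and 9.20, 9.29, 12.15 and 9.58 in heterozygous replicates 1 to 4. The highest Cy3 sample was heterozygous replicate 3, by 3.38-fold, and wildtype replicate 2 the highest Cy5 sample by 2.06-fold. The second Cy3 sample was wildtype replicate 3, without which the gap of heterozygous replicate 3 was 2.73 in place of 1.76. With the deposited value table the gaps of Pomc were 0.80 in heterozygous replicate 3 and 0.81 in wildtype replicate 2, both under the limit.

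Trh encodes thyrotropin-releasing hormone, made in the paraventricular hypothalamus and elsewhere. Its probe (A_55_P2071349, chr6:92192061-92192120, minus strand) measured 9.10, 8.73, 9.79 and 9.17 in wildtype replicates 1 to 4 and 8.35, 8.43, 9.40 and 8.46 in heterozygous replicates 1 to 4. Wildtype replicate 3 was the highest and heterozygous replicate 3 the second, and neither was 2-fold above its dye.

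Gal encodes the neuropeptide galanin. The levels of its probe (A_51_P258281, chr19:3411143-3411202, minus strand) lay between 10.10 in wildtype replicate 4 and 10.65 in wildtype replicate 3, with heterozygous replicate 3 at 10.56. The whole range over 8 samples was 0.55, so no sample differed from another by as much as 1.5-fold.

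Prkcd encodes protein kinase C delta, abundant in sensory thalamic relay neurons and also found in the extended amygdala. Its brighter probe (A_51_P460734, chr14:31409035-31409094, minus strand) measured 9.46, 9.31, 9.49 and 9.11 in wildtype replicates 1 to 4 and 9.34, 9.23, 12.32 and 9.72 in heterozygous replicates 1 to 4. The level in heterozygous replicate 3 was 7.09-fold above the next Cy3 sample, while the other 7 samples spanned 0.61. The second probe, printed above, measured 8.55, 8.82, 9.10 and 8.88 in wildtype replicates 1 to 4 and 8.89, 8.94, 11.06 and 9.18 in heterozygous replicates 1 to 4. It placed heterozygous replicate 3 highest by 3.88-fold, so both probes of Prkcd, well above background in every sample, gave the same sample.

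Tcf7l2 encodes a transcription factor of the Wnt pathway that marks thalamic and habenular neurons and is also made in cells of the oligodendrocyte lineage. Its 3 probes disagreed. The brightest (A_55_P2143724, chr19:55817272-55817331) measured 8.31 to 8.66, with heterozygous replicate 3 at 8.39, the lowest of the Cy3 samples and not well above background there. The probe printed above measured 7.49, 7.33, 7.80 and 7.46 in wildtype replicates 1 to 4 and 7.50, 7.15, 10.30 and 7.21 in heterozygous replicates 1 to 4. Heterozygous replicate 3 was the only Cy3 sample in which that probe was well above background, at least 4.49-fold above the others, and its processed intensity was 767 against 17.25 to 46.15 in the other 7 samples. The third probe (A_55_P2260094) was well above background in 1 sample and ranged from 6.51 to 7.48. Counting any probe of a gene, a choice made after the data were seen, 7 of the 10 genes stood out in heterozygous replicate 3, with Tcf7l2 as the addition, against 1.38% of all genes.

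Rora encodes an orphan nuclear receptor of thalamic relay neurons, also made in cortical layers and other brain regions. Its brighter probe (A_55_P2078123, chr9:69226774-69226833, plus strand) measured 9.90, 10.002, 9.38 and 9.91 in wildtype replicates 1 to 4 and 10.05, 10.38, 10.58 and 10.43 in heterozygous replicates 1 to 4. All 4 heterozygous samples were above all 4 wildtype samples, which was so for none of the other 9 genes and for 2.11% of the 18582 genes of the genotype fit with 8 values. Heterozygous replicate 3 was the highest, but the gap of 0.53 to the next Cy3 sample was under the limit. The dim second probe (A_55_P2068006) ranged from 7.00 to 7.59 and was well above background in 2 samples.

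**Figure D2:**
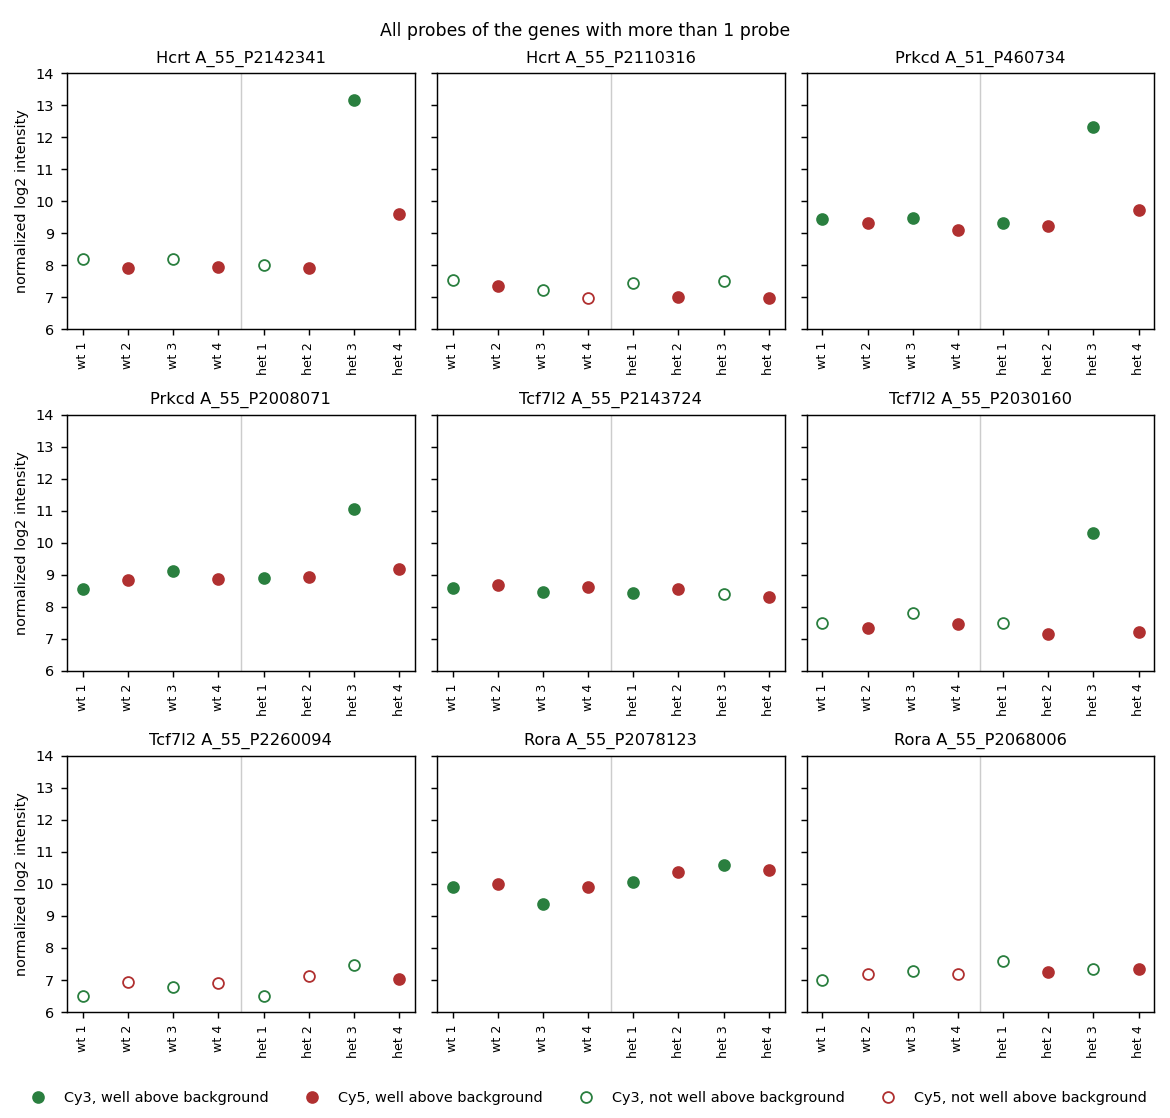
Normalized log2 intensity (vertical axis) in the 8 samples (horizontal axis) for every probe of Hcrt, Prkcd, Tcf7l2 and Rora, the genes with more than 1 probe. Both Prkcd probes place heterozygous replicate 3 highest, at 12.32 and 11.06, while 1 of 2 Hcrt probes and 1 of 3 Tcf7l2 probes place it at least 2-fold above the other Cy3 samples.

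Without heterozygous replicate 3, the range of the 6 genes that stood out there was smaller. The range over the other 7 samples was 1.69 for Hcrt, 1.16 for Avp, 2.47 for Oxt, 1.14 for Pmch and 1.42 for Pomc, against 5.25, 4.04, 3.57, 6.57 and 2.95 over all 8. For Prkcd it was 0.61 against 3.21. For Rora it was 1.05 against 1.20, and for Trh, Gal and Tcf7l2 it did not change, at 1.45, 0.55 and 0.36. Oxt had the widest remaining range, between wildtype replicate 2 and wildtype replicate 3. With that sample left out, 3 of the 10 genes had a sample standing above its dye, namely Pomc in wildtype replicate 2, Hcrt in heterozygous replicate 4 and Oxt in wildtype replicate 3, against 1.69% of all genes. Each remaining Cy3 sample was then set against 2 others only.

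The genotype comparison was fitted across 19802 genes with limma, and 0% of them passed an adjusted p under 0.05 (Benjamini-Hochberg), while 1703 had an unadjusted p under 0.05. Of the 10 genes, 9 passed the filter on dim probes, Pmch being the exception, and none of the 9 was called. Heterozygous minus wildtype, 6 were higher and 3 lower, with a median difference of 0.29 against -0.01 over all genes tested. Without heterozygous replicate 3, 4 were higher and 5 lower, with a median of -0.06 against -0.0041 over all genes, and again none was called in limma, while 2249 of all genes had an unadjusted p under 0.05. In the heterozygous samples Hcrt averaged 9.66 ± 2.46 (SD, n = 4) against 8.07 ± 0.16 (SD, n = 4) in wildtype, a difference of 1.59 (SE 1.01, adjusted p = 0.667 in limma). The SD of Hcrt was thus wide in one genotype and narrow in the other, and without heterozygous replicate 3 the difference was 0.47.

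For the remaining peptide genes the difference was 0.86 (SE 0.70) for Avp, 0.29 (SE 0.68) for Oxt, 0.09 (SE 0.65) for Pomc, -0.54 (SE 0.25) for Trh and -0.03 (SE 0.12) for Gal. Leaving out heterozygous replicate 3 changed these to 0.09 for Avp, -0.29 for Oxt, -0.63 for Pomc, -0.73 for Trh and -0.06 for Gal. The direction of Oxt and Pomc therefore turned with that sample. For the genes of the thalamus it was 0.81 (SE 0.58) for Prkcd, which became 0.12 without that sample, -0.16 (SE 0.10) for Tcf7l2, which became -0.17, and 0.56 (SE 0.16) for Rora.

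Rora had the smallest p among the 10 genes, with a 95% interval of 0.18 to 0.94 for the difference and an adjusted p of 0.474 in limma, so it was not called. Its difference was 0.44 without heterozygous replicate 3. Pmch was not well above background in any wildtype sample and averaged 8.28 ± 3.11 (SD, n = 4) in the heterozygous samples. Each wildtype value was raised to its sample's lowest signal well above background where it lay below that. Against these values the heterozygous average was 1.63-fold higher, a difference carried by 1 sample. Heterozygous replicates 1 and 2 were not well above background and entered as measured, so 1.63-fold is not a lower bound. In normalized level the other 3 heterozygous samples were no higher than wildtype replicate 3. In processed intensity heterozygous replicate 4 read 20.17, within the wildtype range of 15.1 to 32.53.

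**Figure D3:**
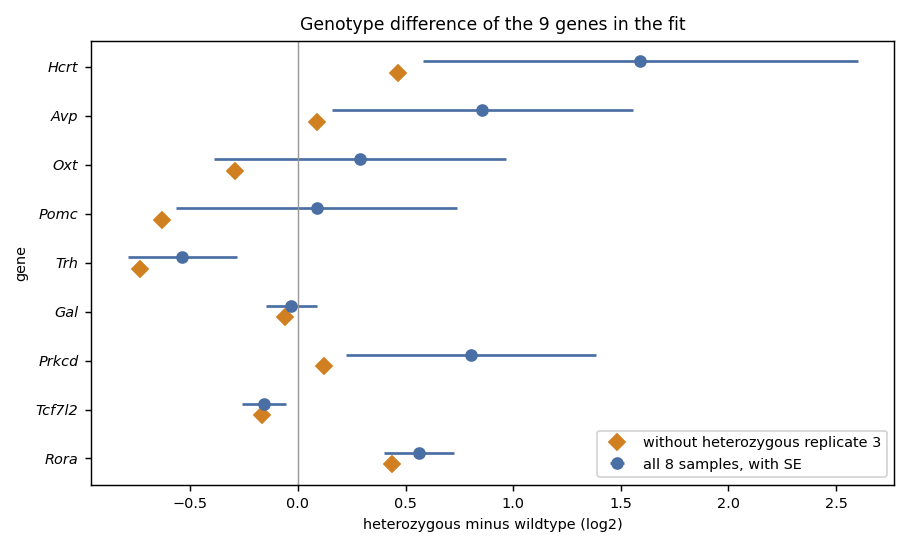
Heterozygous minus wildtype difference on the log2 scale (horizontal axis) for the 9 genes that passed the filter on dim probes. Blue points are the fit of all 8 samples with the SE as bars, and orange diamonds the fit without heterozygous replicate 3, where Hcrt moves from 1.59 to 0.47 and Prkcd from 0.81 to 0.12.

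Other genes of the same regions were read from lists, each counted by the same limit. These lists, and those of other tissues below, were chosen with earlier results of these data known. Their counts describe the samples and are no separate test. Among 32 further hypothalamic genes, 0 stood out in heterozygous replicate 3, 7 were well above background there, and their mean deviation from the median of the Cy3 samples was 0.01. The mean deviation of the 10 genes in that sample was 2.12. The hypothalamic genes in question include releasing hormones, peptides and transcription factors such as Agrp, the orexigenic peptide of the arcuate nucleus (6.82 to 7.44), and Crh, corticotropin-releasing hormone (8.45 to 9.32). Among its transcription factors, Nr5a1 was well above background in all 8 samples (8.80 to 9.11), Nkx2-1 in 5, Otp and Hmx3 in 2 and Rax in 1, while Sim1, Six6, Fezf1, Bsx, Hmx2 and Nhlh2 were in none.

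A single further hypothalamic gene stood out anywhere. Hdc, which encodes the enzyme that makes histamine, measured 8.88, 8.36, 11.04 and 9.17 in wildtype replicates 1 to 4 and 7.73, 8.07, 8.47 and 7.69 in heterozygous replicates 1 to 4. Wildtype replicate 3 was 4.48-fold above the next Cy3 sample. That sample was also the second highest Cy3 sample for Avp, Oxt and Pomc and the highest for Trh.

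Of 24 further thalamic and habenular genes, 7 stood out in heterozygous replicate 3, against 1.17% of all genes, and none in any other sample. Their mean deviation there was 0.72 and their median deviation 0.29, against a range of mean deviations of -0.11 to 0.08 in the other 7 samples. The largest gap was that of Ramp3, a receptor-associated protein, at 13.50 against 9.77 to 10.40 in the other 7 samples, 10.2-fold above the next Cy3 sample. Ntng1, the axon guidance protein netrin-G1 of thalamocortical neurons, measured 11.91 against 9.11 to 9.93, and heterozygous replicate 4 held the second highest level, as for Hcrt.

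Tnnt1, a troponin gene with strong thalamic expression, measured 12.14 against 9.38 to 10.28, and Rgs16, a regulator of G protein signalling, 11.01 against 8.83 to 9.43. Slc17a6, the vesicular glutamate transporter of thalamic and hypothalamic neurons, measured 8.11, 9.02, 8.11 and 8.43 in wildtype replicates 1 to 4 and 8.82, 9.80, 9.85 and 9.76 in heterozygous replicates 1 to 4. It stood just above its dye in heterozygous replicate 3, and the Cy5 heterozygous samples were nearly as high on the Cy5 scale. Of the thalamic transcription factors, Lef1 stood out in heterozygous replicate 3, at 10.97 against 9.07 to 9.78 in the other 7 samples. Gbx2 had no sample standing out (6.37 to 7.84), and Shox2 was not well above background in any sample.

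**Figure D4:**
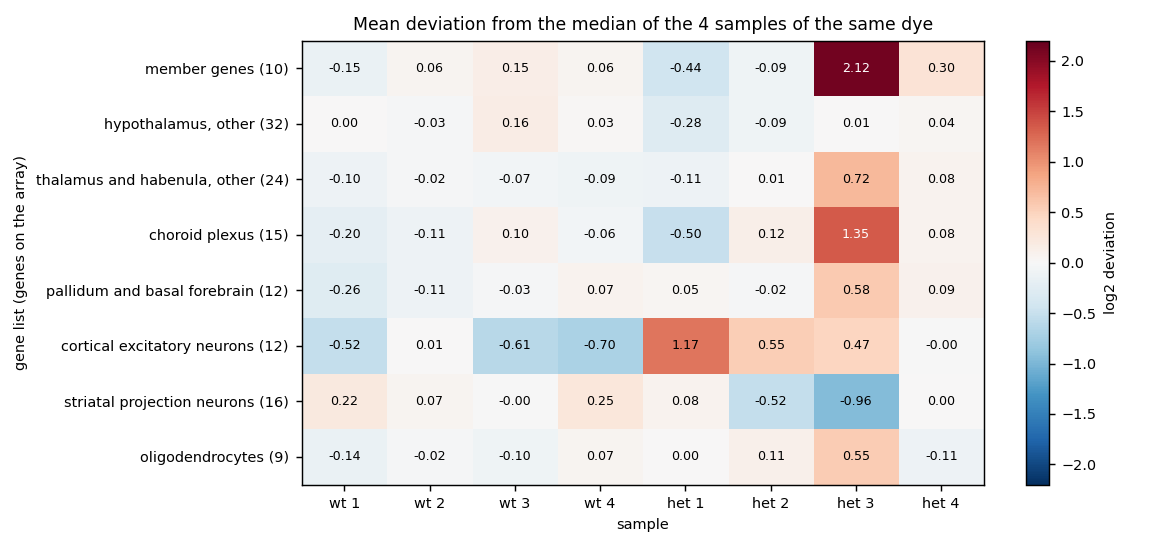
Mean deviation on the log2 scale (colour and printed value) of each gene list (vertical axis, number of genes on the array in brackets) in each sample (horizontal axis), taken from the median of the 4 samples of the same dye. In heterozygous replicate 3 the 10 genes reach 2.12, the choroid plexus list 1.35 and the thalamic list 0.72, and the striatal list is at -0.96.

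Markers of some other tissues stood out in heterozygous replicate 3 beside the 6 of the 10 genes that did, and their part in the result was not tested. Of 15 genes of the choroid plexus, the secretory tissue of the ventricles, 9 stood out in that sample and none in another. Across all genes, 1.17% stood out there. Ttr, the plasma thyroxine carrier that the choroid plexus makes in large amounts, measured 12.46, 11.52, 14.12 and 11.91 in wildtype replicates 1 to 4 and 11.56, 13.06, 16.30 and 13.00 in heterozygous replicates 1 to 4. Wildtype replicate 3, the sample with high Hdc, was the second highest. Folr1, a folate receptor, was 5.57-fold above the next Cy3 sample. The potassium channel Kcnj13 measured 10.02 and the water channel Aqp1 9.65, and the other 3 Cy3 samples were not well above background for either. The summed level of the list was 14.53 to 15.39 on the log2 scale in the wildtype samples and 14.75 to 17.26 in the heterozygous samples, the highest being heterozygous replicate 3. Of the 15 genes, 8 to 13 were well above background in the wildtype samples and 5 to 15 in the heterozygous samples.

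The genes of striatal projection neurons went the other way in heterozygous replicate 3. Of 16 such genes, 13 were lower there than in all other Cy3 samples, against 28.8% of all genes, and their mean deviation was -0.96. Drd1 measured 10.998 in that sample against 11.82 to 12.75 in the other 7, and Drd2 measured 9.03 against 9.47 to 10.39 and was not well above background there. Ido1, an enzyme gene of the list, was not well above background there either, and the other 14 of the 16 genes were. Ido1 measured 8.37 there and 8.44 to 8.90 in the other heterozygous samples, against 9.52 to 10.08 in wildtype. The summed level of the list in heterozygous replicate 3, 17.86, was the lowest of the 8 samples. It was 18.69 to 18.93 in wildtype and 18.28 to 19.15 in the other heterozygous samples. The second lowest was heterozygous replicate 2, at 18.28, with a mean deviation of -0.52. Outlier spots were missing from the sums of some wildtype samples. Drd1 and 13 other striatal markers were thus measured above background in the sample with the highest Hcrt, Pmch, Avp and Prkcd.

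The pallidum and basal forebrain list had 2 of 12 genes standing out in heterozygous replicate 3 and 1, Pvalb, in heterozygous replicate 2. The shares of all genes were 1.17% and 0.174%. Pvalb, parvalbumin of pallidal neurons, interneurons and the reticular thalamus, measured 15.08 against 10.91 to 13.78 in the other 7 samples, and the nerve growth factor receptor Ngfr measured 11.49 against 8.98 to 9.93. Lhx6, a transcription factor of pallidal and cortical interneurons, was lowest there, at 13.84 against 14.44 to 15.14. Of 9 oligodendrocyte genes, 2 stood out in heterozygous replicate 3, against 1.17% of all genes. There 7 of the 9 were highest of the Cy3 samples, against 29.1% of all genes, and 1, Mbp, was lowest. Ermn, a cytoskeletal protein of myelinating cells, measured 14.03 against 11.58 to 12.46 in the other 7 samples. Mbp measured 11.43 there against 11.996 to 12.90 in the other 7 samples.

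Genes of cortical excitatory neurons followed another order. None of the 12 stood out in heterozygous replicate 3, whereas 4 stood out in heterozygous replicate 1 and 1 in heterozygous replicate 2. In these last 2 samples 0.421% and 0.174% of all genes did. The mean deviation of the list was still 0.47 in heterozygous replicate 3, below 1.17 in heterozygous replicate 1. It was -0.52 and -0.61 in wildtype replicates 1 and 3, the other Cy3 samples. Slc17a7, the cortical vesicular glutamate transporter, measured 7.78, 10.77, 7.84 and 10.22 in wildtype replicates 1 to 4 and 11.48, 12.08, 9.69 and 12 in heterozygous replicates 1 to 4. Within each dye all heterozygous samples lay above the wildtype samples, and heterozygous replicate 3 was the lowest heterozygous sample. In heterozygous replicate 1, Neurod6, a transcription factor of cortical projection neurons, measured 9.52, while the other 3 Cy3 samples were not well above background. In heterozygous replicate 2 the upper-layer factor Cux2 was 2.32-fold above the next Cy5 sample. In those 2 samples none of the 10 hypothalamic and thalamic genes stood out, so the samples highest in cortical genes and in hypothalamic peptides were not the same.

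**Figure D5:**
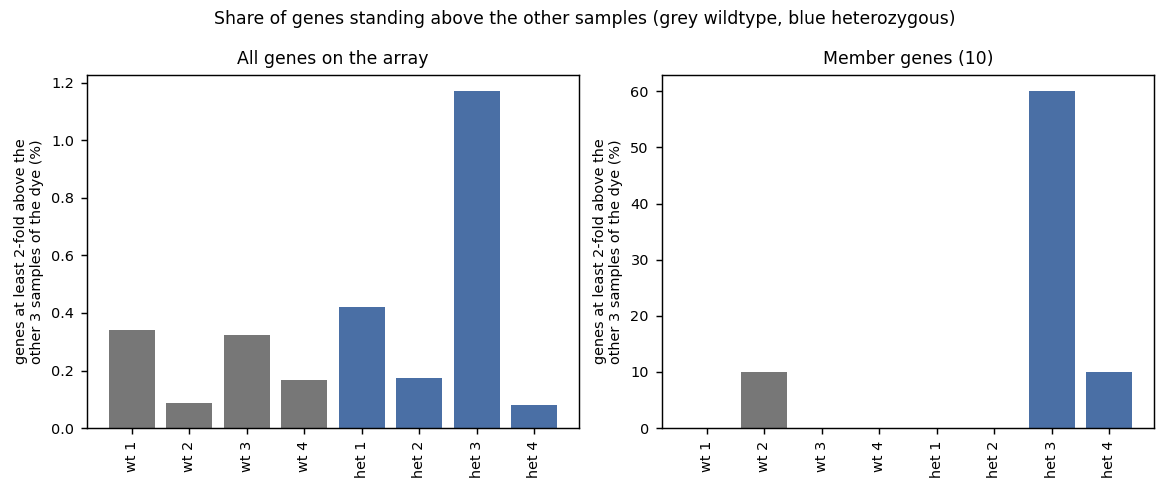
Percentage of genes (vertical axes, different scales) at least 2-fold above the other 3 samples of the same dye in each sample (horizontal axis), for all 30397 genes on the left and the 10 genes on the right. Heterozygous replicate 3 holds 1.17% of all genes and 60% of the 10 genes.

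Genes across the array whose levels ran most like those of the 10 genes were ranked by Pearson's r over the 8 samples, after the mean of each dye was removed, among 9112 genes with a symbol that were well above background in heterozygous replicate 3. That sample lies far from the rest for these genes and weighs heavily on r, which is given as a description. The genes were ranked on all 8 samples, so the values of r over the 7 others below are no separate check of the likeness. Hcrt was most like Ntng1 (r = 0.995), which is also in the thalamic list, then Zfp423 and Cyp26b1 (both 0.993). Over the 7 other samples these values were 0.95, 0.93 and 0.94. There heterozygous replicate 4, at 9.59 the highest of them for Hcrt, weighs heavily in turn. Cyp26b1, a retinoic acid hydroxylase, was among the first 3 for Prkcd as well (0.989), after Cd164l2 (0.997) and G6pc3 (0.992), and was 5.24-fold above the next Cy3 sample.

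The closest genes to Avp were Slc29a4, a monoamine transporter that was 4.22-fold above the next Cy3 sample, Stat3 and Pacsin3. Those closest to Oxt were Fxyd1, Csrp2 and Sting1, with r = 0.993 for Fxyd1 and 0.985 for it over the other 7 samples. Pmch ran closest to Hepacam (r = 0.994), B4galt7 (0.991) and Cpxm1 (0.991), and without heterozygous replicate 3 these values were 0.87, 0.97 and 0.56, over samples of which 1 was well above background for Pmch. Pomc ran closest to Lyl1, Msh6 and Med29. None of the genes closest to Oxt or Pomc was 2-fold above the other Cy3 samples in heterozygous replicate 3, the largest gap being 0.61 for Csrp2.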

How the data were processed

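The 8 samples were read from 4 two-colour Agilent arrays (array design 026655) on 1 slide with 1 scan, each sample from its own channel. The authors' spot intensities were extracted by Agilent Feature Extraction 10.7.3.1, per the file headers. In the deposited value table, each entry is a spot's background-subtracted median intensity as a ratio to its column's median of 1 (100% matched within 1e-04). Its scale and its lack of gene centring were found from these values, and it served as an alternative. For the main values, background was removed from mean intensities by normexp with an offset of 50. Loess was then applied within arrays and Aquantile between them, and single channels were taken as log2 values (limma 3.58.1 under R 4.3.3, with statmod 1.5.0 and data.table version 1.17.8). Left out were 1377 control spots and, per sample, 230 to 978 outlier spots. RefSeq (GRCm38.p6) named 27234 probes through their accession and 3576 through their symbol, and 8619 kept the file's name.

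The fit used probes well above background in at least 4 of 8 samples (25316), the brightest per gene, with fixed terms for genotype and dye and a random block for each array, tested with lmFit and eBayes and checked on simulated data. Each array held 1 genotype, so array and genotype cannot be fully told apart. "At least" folds set the bright sample against the higher of a dim value and its sample's lowest signal well above background.

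The 10 genes and all lists were chosen with earlier results of these data known. Named were the 10 genes with every probe, up to 4 genes per list with the largest gap, the 3 genes most like each of the 10 with a standing sample, and Brd2, Drd1, Drd2, Ttr, Slc17a6, Slc17a7 and Pvalb. Agrp, Crh, Sim1, Six6, Fezf1, Bsx, Nr5a1, Nkx2-1, Otp, Hmx3, Rax, Hmx2, Nhlh2, Lef1, Gbx2, Shox2, Lhx6, Mbp, Ido1 and, in the closing section, Timp2 were picked once values had been seen. Further genes that this rule picks are not reported here. The alternatives were other background corrections, normalizations, filters, limits, probe choices and model terms, the value table, and each sample left out. Figures were drawn with matplotlib 3.10.9.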

Additional observations from a re-analysis of the deposited data

Results flagged for a closer look

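In 20 groups of 4 samples, the 10 genes in each genotype, the gap between the highest or lowest sample and its neighbour was divided by the whole range of the group. Levels were first taken as deviations from the median of the 4 samples of the same dye. The genes were chosen on these samples, so the ratios describe the values and test nothing, and chance alone would pass about 1 group in 20. Pmch in the heterozygous samples had a ratio of 0.919, with deviations of -0.38, -0.17, 5.53 and -0.67 in replicates 1 to 4, of which replicates 3 and 4 were well above background. Gal in the heterozygous samples had a ratio of 0.892 because replicate 1 was low, with deviations of -0.29, 0.03, 0.03 and 0.06 in replicates 1 to 4.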

How the results depend on the processing

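Heterozygous replicate 3 had 4 to 7 of the 10 genes standing above its dye under all 17 alternatives, and 6 whichever other sample was left out. The count of 10 genes with any such sample was 3 to 6 with 1 sample left out, the lowest without heterozygous replicate 3. Heterozygous replicate 4 had 2 with processed intensities, the value table or a gap of 0.5, and 0 with the mean over probes, a gap of 2 or all 7 other samples, with 1 to 2 when a sample was left out. Wildtype replicate 2 had 0 with quantile normalization, the value table, a gap of 2 or all 7 other samples, and wildtype replicate 3 had 0 to 1 when a sample was left out. The number of genes past the threshold was 0 except with the mean over probes, where it was 1 (Timp2). The cause was not tested.

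The gap of Hcrt in heterozygous replicate 3 was 2.47 to 6.14 and that of Pmch 4.12 to 7.54 over 13 alternatives. Gaps turned with the value table for Cd164l2 (-0.26), Csrp2 (-0.23), Fxyd1 (-0.58), Lyl1 (-0.16), Med29 (-0.37), Msh6 (-0.58) and Sting1 (-0.33), and with the mean over probes for Med29 (-0.17). Against all 7 other samples they turned for Hcrt in heterozygous replicate 4 (-3.57), Pomc in wildtype replicate 2 (-1.53), Neurod6 (-0.56) and Slc17a7 (-0.61), a comparison across dyes. The genotype difference of Pomc was -0.0182 with processed intensities and -0.0108 with the value table, and that of Tcf7l2 was 0.18 with the mean over probes. With 1 sample left out, it ranged from -0.63 to 0.58 for Pomc, -0.29 to 1.01 for Oxt, -0.073 to 0.063 for Gal and -0.59 to 0.031 for Drd2.

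Replicate numbers follow the dyes. Correlations of same-numbered samples, with the dye removed, were 0.10 and 0.02, so the numbers were not taken as pairing. With the replicate block 0 genes were called. Cy3 signal near background limits the levels of Hcrt, Avp, Pmch and the second Tcf7l2 probe in the other Cy3 samples, and 4 samples per genotype limit every difference.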
